A study of Mus musculus with 8 samples.

Results

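The 9 microglia marker genes Cx3cr1, P2ry12, Tmem119, Csf1r, C1qa, C1qb, C1qc, Trem2 and Aif1 were followed by symbol through bulk RNA-seq of whole mouse brains, in which 24343 genes were listed. All 9 symbols were found in every library. The brains came from 3 C57BL/6NCrl mice of 56–62 days, for which the labels name no treatment and no modified allele, and these gave 3 libraries for mouse 1, 3 for mouse 2 and 2 for mouse 3. What the library numbers stand for is not given, libraries of a mouse are not independent animals, and the sex of the mice is not in the labels. The only comparison that the design allows is therefore between individual mice, and its p-values measure the difference between mice against the spread between libraries of the same mouse.

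Microglia are the resident macrophages of the brain, which arise from the yolk sac, survey their surroundings with moving processes, clear debris and synapses, and depend on signalling through the Csf1 receptor. The genes considered here cover 4 roles: receptors by which microglia read signals from other cells (Cx3cr1, Csf1r and P2ry12), a receptor for lipids and debris (Trem2), the chains of the complement protein C1q (C1qa, C1qb and C1qc), and proteins used to stain the cells (Tmem119 at the surface, and the product of Aif1, IBA1, in the cytoplasm). In the healthy brain C1q is made largely by microglia, and Tmem119 and P2ry12 are used to tell microglia from macrophages that enter from blood, whereas Csf1r, Cx3cr1, Trem2 and Aif1 are shared with other macrophages.

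Levels are given in FPKM (sequenced fragments per kilobase of transcript, scaled to the size of the library), summed over the transcripts of a gene, so that levels of different genes can be set side by side. The depth of the libraries on transcripts was 1.31 to 2.02 gigabases. The libraries of mouse 3 stood apart from the rest: FPKM values summed to 384885 and 409889 in them and to between 295541 and 345572 in the other 6 libraries, and the difference of mouse 3 from the other mice ran with transcript length. The median log2 difference of mouse 3 from the mean of mice 1 and 2 was 0.41 in the shortest quintile of the 13001 genes tested (those averaging 1 FPKM or more) and −0.21 in the longest quintile. Over all genes tested the median difference was 0.02, which moved to −0.23 when each library was scaled to the same total (TPM). The changes of the 9 genes are therefore given for FPKM, for TPM and after correction for transcript length (the dependence of each library on length being subtracted), and those of other genes for FPKM unless another scale is named.

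The 9 genes spanned a modest range of levels. The C1q genes were highest, with means of 29.8 ± 6.57 FPKM for C1qc, 29.8 ± 6.78 for C1qa and 28.2 ± 9.24 for C1qb (SD, n = 3 mice, as for all levels that follow). They ranked 2246, 2247 and 2380 among all genes. Next came the receptors Csf1r at 16.9 ± 0.738 FPKM, P2ry12 at 14.3 ± 0.344 and Cx3cr1 at 11.3 ± 1.80. Trem2 at 7.53 ± 2.75, Tmem119 at 6.20 ± 0.966 and Aif1 at 6.17 ± 2.87 FPKM were lowest, down to rank 7961. In this order C1qb exceeded Csf1r in 8 of 8 libraries and Cx3cr1 exceeded Trem2 in 8 of 8. The neighbours C1qb and Csf1r, Csf1r and P2ry12, and P2ry12 and Cx3cr1 were further apart than their SDs between mice, whereas the SD ranges of all other neighbours overlapped: C1qc exceeded C1qa in 4 of 8 libraries and Tmem119 exceeded Aif1 in 5 of 8. The spread between mice also differed among the genes, with a coefficient of variation from 2.41% for P2ry12 and 4.36% for Csf1r to 36.6% for Trem2 and 46.5% for Aif1, beside a median of 12.3% over all genes tested.

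**Figure D1:**
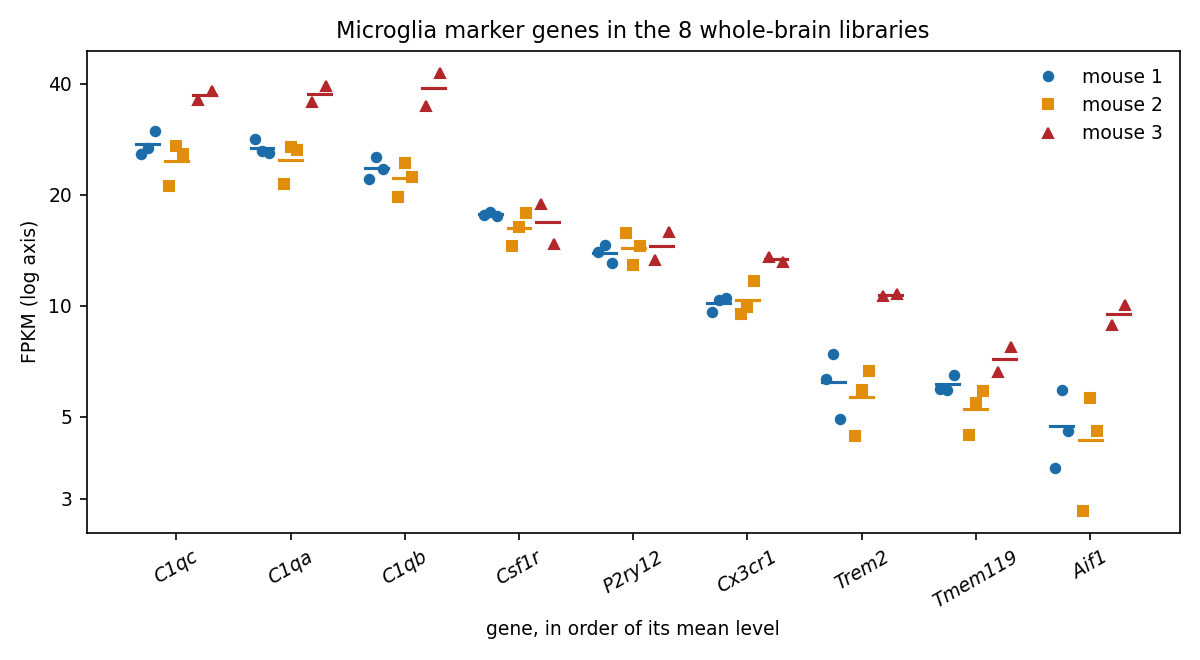
FPKM (vertical log axis) of the 9 microglia marker genes, in the order of their means, with a point for each of the 8 libraries and a line at the mean of each mouse. Both libraries of mouse 3 lie above the other 6 for 7 of the 9 genes (26.5% of all genes tested), and for Csf1r and P2ry12 the mice overlap.

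The C1q chain genes lie side by side on the minus strand of chromosome 4, in the order C1qb (chr4:136880145-136886177, mm10), C1qc (chr4:136889802-136892914) and C1qa (chr4:136895916-136898844). Each is a protein-coding gene of 3 exons, and the cluster spans 18700 bases with gaps of 3624 and 3001 bases. Their products assemble into the molecule that starts the classical complement pathway. The 250 bases before the starts of C1qb and C1qc (RefSeq, GRCm38.p6) are shown because both hold a match to AGGAAGT. PU.1 (the product of Spi1), a transcription factor on which microglia and other myeloid cells depend, can bind this sequence. A match of letters does not tell which factor binds there. Both promoters are printed in the direction of the gene, with the match in capitals. The match lies on the opposite strand in both and so reads as its reverse complement.
C1qb promoter, chr4:136886201-136886450, minus strand: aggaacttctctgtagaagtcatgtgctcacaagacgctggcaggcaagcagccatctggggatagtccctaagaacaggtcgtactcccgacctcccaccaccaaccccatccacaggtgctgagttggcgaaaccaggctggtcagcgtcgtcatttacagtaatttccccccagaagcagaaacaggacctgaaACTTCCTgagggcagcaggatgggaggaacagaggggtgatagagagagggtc
C1qc promoter, chr4:136892915-136893164, minus strand: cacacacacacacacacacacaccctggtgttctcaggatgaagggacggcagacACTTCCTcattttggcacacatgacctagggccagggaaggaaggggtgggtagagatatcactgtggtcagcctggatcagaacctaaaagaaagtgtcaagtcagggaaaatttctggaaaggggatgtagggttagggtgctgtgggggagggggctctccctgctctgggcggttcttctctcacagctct
The match lies 53 to 47 bases before the start in C1qb and 195 to 189 bases before it in C1qc. Starts are those of the RefSeq promoter table, which is the start in the deposited table for C1qc and lies 23 bases upstream of it for C1qb. Promoters of 6 of the marker genes were searched on both strands, and those of C1qa, Tmem119 and Csf1r were not searched. AGGAAGT was present in 3 of the 6 (C1qb, C1qc and P2ry12) and in 7.69% of 32851 promoters of the same length. No match to the TATA box TATAAA (12.4% of all promoters) was found in the 6. These counts describe letters only.

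Mouse 3 had the higher levels of all C1q genes. C1qa was at 28.3, 26.3 and 25.9 FPKM in the libraries of mouse 1, at 21.4, 26.9 and 26.4 in those of mouse 2, and at 35.7 and 39.4 in those of mouse 3. C1qb was at 22.1, 25.2 and 23.5 FPKM in mouse 1, at 19.7, 24.4 and 22.3 in mouse 2, and at 34.8 and 42.9 in mouse 3. C1qc was at 25.8, 26.8 and 29.7 FPKM in mouse 1, at 21.1, 27.1 and 25.8 in mouse 2, and at 36.1 and 38.3 in mouse 3. Both libraries of mouse 3 were above all others for each of these genes, as they were for 26.5% of all genes tested. The first library of mouse 2, the least deeply sequenced, was the lowest for each. On the log2(FPKM + 1) scale mouse 3 exceeded the mean of mice 1 and 2 by 0.52 ± 0.097 (SE) for C1qa, 0.73 ± 0.11 for C1qb and 0.50 ± 0.10 for C1qc, with adjusted p-values of 0.014, 0.0069 and 0.017 (limma moderated F-test between the mice, Benjamini-Hochberg over 13001 genes). In whole tissue, more cells of a type and more RNA per cell cannot be told apart. With the libraries scaled to the same total, C1qb stayed past the threshold (0.44, adjusted p = 0.0058), whereas C1qa (0.23, adjusted p = 0.061) and C1qc (0.21, adjusted p = 0.062) did not. With the length trend removed, C1qb again passed (0.31, adjusted p = 0.018), and C1qa (0.11) and C1qc (0.079) did not. The confidence bounds deposited with each value separated both libraries of mouse 3 from all other libraries for C1qa and C1qb and in 11 of 12 pairs of libraries for C1qc, at a coverage of 33.3 to 91.5 reads per base for C1qb.

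Since a ratio of genes within a library does not depend on how the library is scaled, the ratios of the C1q chains were compared next. The ratio of C1qa to C1qc was 1.00 ± 0.0153 over the mice, with mouse means of 0.983, 1.01 and 1.01, although single libraries ranged from 0.871 to 1.10. The ratio of C1qa to C1qb had mouse means of 1.14, 1.12 and 0.971, and that of C1qc to C1qb was 1.17, 1.11 and 0.965. For both ratios the libraries of mouse 3 were the lowest of the 8 (1.02 and 0.918 for C1qa to C1qb against at least 1.04 elsewhere, and 1.04 and 0.893 for C1qc to C1qb against at least 1.06). The log2 difference of mouse 3 from the other mice was −0.22 for C1qa to C1qb, −0.24 for C1qc to C1qb and 0.02 for C1qa to C1qc. Without the second library of mouse 3 the first and second of these were −0.14 and −0.13. None of the 3 ratios passed an exact permutation test over all 280 groupings of the libraries (one-sided, F statistic): p was 0.16, 0.061 and 0.81, and 0.25, 0.18 and 0.81 after Benjamini-Hochberg adjustment over the 3 ratios, where the smallest p possible was 0.0036. The nearest genes on either side that were tested, the neuronal receptor genes Ephb2 (3.37 ± 0.527 FPKM) and Epha8 (2.92 ± 0.629 FPKM), differed in mouse 3 by −0.31 and −0.40, with adjusted p-values of 0.12 and 0.061 (limma).

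**Figure D2:**
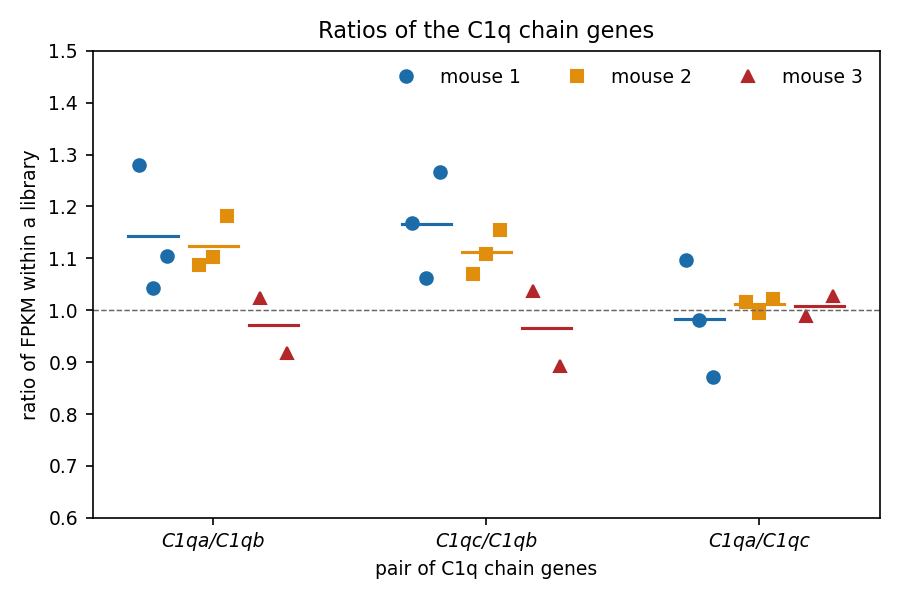
Ratios of FPKM between pairs of C1q chain genes within each library (vertical axis, no unit), with a point for each of the 8 libraries, a line at the arithmetic mean of each mouse and a dashed line at equal levels. The ratio of C1qa to C1qc is centred near equal levels in each mouse, and the libraries of mouse 3 are the lowest for both ratios to C1qb.

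Of the receptors for signals from other cells, Cx3cr1 was higher in mouse 3, whereas Csf1r and P2ry12 did not pass the test. Cx3cr1 (chr9:120048683-120068296, minus strand, 2 exons, transcript of 3753 nucleotides) encodes the receptor for fractalkine, which neurons present on their surface and shed. It was at 9.60, 10.4 and 10.5 FPKM in mouse 1, at 9.50, 9.92 and 11.6 in mouse 2, and at 13.6 and 13.2 in mouse 3, so that mouse 3 was highest without overlap. The deposited confidence bounds placed mouse 3 above the other mice in 10 of 12 pairs of libraries. The log2 difference of Cx3cr1 was 0.35 ± 0.086 (adjusted p = 0.038, limma). It was 0.42 with the length trend removed (adjusted p = 0.0078), since transcripts of this length were on balance lower in mouse 3, and 0.079 with the libraries scaled to the same total (adjusted p = 0.73). Its call was lost in 6 of 8 fits that left out 1 library, with adjusted p-values of up to 0.17. The gene for its ligand, Cx3cl1, was about an order of magnitude higher, at 119.5 ± 20.5 FPKM, and moved the opposite way: it was between 114.8 and 140.9 FPKM in mice 1 and 2 and at 106.0 and 87.3 in mouse 3 (log2 difference −0.44 ± 0.097, adjusted p = 0.024, limma). It was called lower in TPM (−0.73) and after correction for length (−0.41) too. The ratio of ligand to receptor was thus 13.4 and 12.2 in mice 1 and 2 and 7.22 in mouse 3.

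Csf1r, a gene of 22 exons, encodes the receptor tyrosine kinase on which survival of microglia rests. It was at 17.6, 18.0 and 17.5 FPKM in mouse 1, at 14.5, 16.4 and 17.9 in mouse 2, and at 18.9 and 14.7 in mouse 3. The libraries of mouse 3 were thus the highest and the second lowest of the 8, and its log2 difference was −0.019 ± 0.10 (adjusted p = 0.63, limma). It was −0.30 in TPM (adjusted p = 0.087) and 0.059 after correction for length (adjusted p = 0.63). Its ligands are the cytokines Il34, made by neurons of the forebrain, and Csf1. Il34 was at 15.2 ± 1.15 FPKM and Csf1 at 4.76 ± 0.265, a ratio of 3.26 ± 0.487, and neither passed the test (adjusted p = 0.49 and 0.58). Relative to the receptor, Il34 came to 0.907 ± 0.0739 and Csf1 to 0.282 ± 0.0225.

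P2ry12 (chr3:59216271-59262831, minus strand, 4 exons) encodes a receptor for ADP that draws microglial processes to sites of injury. Its promoter is shown for the same reason as those of C1qb and C1qc. Here the match to AGGAAGT, in capitals, lies on the strand of the gene, 52 to 46 bases before the RefSeq start, which is 154 bases upstream of the start of the gene as deposited.
P2ry12 promoter, chr3:59262986-59263235, minus strand: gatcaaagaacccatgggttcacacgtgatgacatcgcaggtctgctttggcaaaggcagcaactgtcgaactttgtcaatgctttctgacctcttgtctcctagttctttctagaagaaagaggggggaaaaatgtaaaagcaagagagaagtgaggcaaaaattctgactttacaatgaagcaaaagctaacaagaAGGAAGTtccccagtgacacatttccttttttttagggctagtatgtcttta
P2ry12 was at 14.0, 14.6 and 13.1 FPKM in mouse 1, at 15.7, 12.9 and 14.5 in mouse 2, and at 13.3 and 15.8 in mouse 3. The mice overlapped throughout, with a log2 difference of 0.038 ± 0.095 for mouse 3 (adjusted p = 0.88, limma) that turned to −0.24 in TPM (adjusted p = 0.23). Of its relatives in signalling by nucleotides, the related receptor gene P2ry13 was at 4.66 ± 0.645 FPKM and Entpd1, which encodes the enzyme that breaks down ATP and ADP outside cells, at 3.21 ± 0.0366. Neither passed the test (adjusted p = 0.22 and 0.97, limma).

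Trem2 was higher in mouse 3. The gene (chr17:48346401-48352276, plus strand, 5 exons) encodes a receptor for lipids and apolipoproteins that signals through the adaptor encoded by Tyrobp. It was at 6.35, 7.38 and 4.93 FPKM in mouse 1, at 4.45, 5.90 and 6.66 in mouse 2, and at 10.6 and 10.8 in mouse 3. Mouse 3 stood above both other mice, which overlapped each other, with a log2 difference of 0.77 ± 0.15 (adjusted p = 0.018, limma). The difference was 0.50 in TPM (adjusted p = 0.034) and 0.36 with the length trend removed (adjusted p = 0.14).

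Tyrobp was at 23.4 ± 12.6 FPKM, with 12.9 to 19.0 FPKM in the libraries of mice 1 and 2 and 29.3 and 46.6 in mouse 3 (log2 difference 1.16 ± 0.18, adjusted p = 0.0089, limma). Its ratio to Trem2 was 2.81, 2.76 and 3.54 in the 3 mice. Apoe, which encodes an apolipoprotein bound by Trem2 and made in the brain mainly by astrocytes, was at 755.8 to 864.0 FPKM in mice 1 and 2 and at 1338 and 1505 in mouse 3 (log2 difference 0.82 ± 0.11, adjusted p = 0.0056, limma). Tyrobp, like Trem2, did not pass the test once the length trend was removed (0.42, adjusted p = 0.066), whereas Apoe did (0.50, adjusted p = 0.031).

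Trem2 was the only one of the 9 genes with more than 1 transcript in the table. The transcript NM_031254 (1091 nucleotides) held 87.6% ± 5.58 of its level and NM_001272078 (1146 nucleotides) the other 12.4% ± 5.58. They differ by 55 coding bases at the start of exon 4 of 5 (chr17:48351691-48351745, mm10, plus strand), and the reading frame after them differs. The longer transcript therefore ends at a stop 11 bases further on, and the coding sequences hold 747 and 681 bases. The junction of both is shown with 20 bases on each side, since it is all that tells them apart. Capitals mark the bases found only in the longer transcript.
NM_001272078: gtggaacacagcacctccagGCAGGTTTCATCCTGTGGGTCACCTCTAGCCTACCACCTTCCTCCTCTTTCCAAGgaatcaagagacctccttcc
NM_031254: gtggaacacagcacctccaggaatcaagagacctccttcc
The share of the longer transcript was 10.6, 18.8 and 27.1% in the libraries of mouse 1, 0.000242, 20.2 and 8.45% in those of mouse 2, and 5.61 and 12.0% in those of mouse 3. The libraries of a mouse thus spread as widely as the mice, and in the first library of mouse 2 the lower confidence bound of the longer transcript was 0. Between mice, NM_031254 averaged 5.09, 5.08 and 9.75 FPKM, and NM_001272078 1.13, 0.585 and 0.945 FPKM, so that the higher level of Trem2 in mouse 3 lay in the shorter transcript. No test was made on transcripts, whose values depend on how reads common to both were divided.

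**Figure D3:**
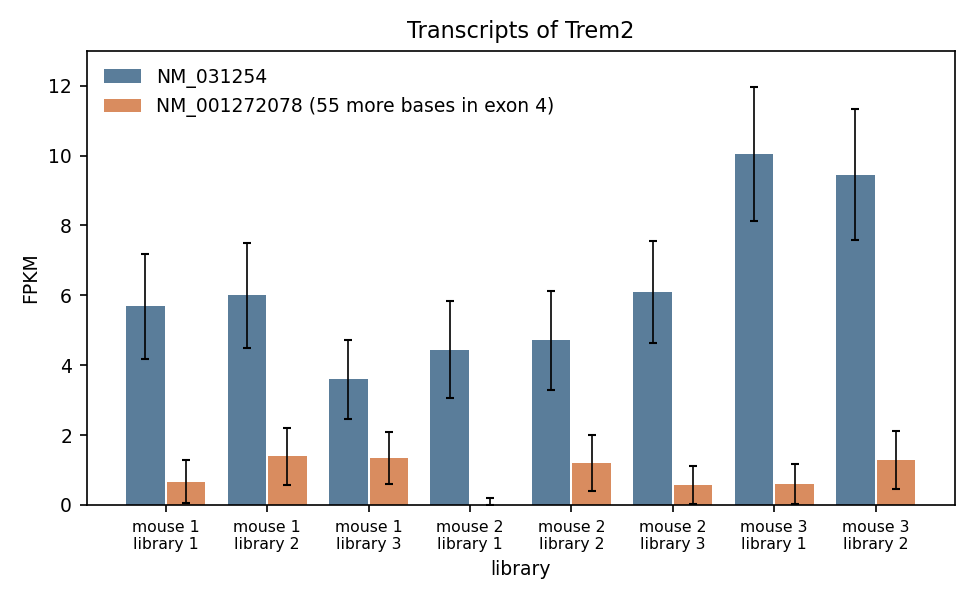
FPKM of the Trem2 transcripts NM_031254 (blue) and NM_001272078 (orange) in each of the 8 libraries, with the confidence bounds deposited by the authors as error bars. NM_031254 is at no less than 9.46 FPKM in mouse 3 and at 3.60 to 6.10 in the other libraries, and NM_001272078 does not exceed 1.39 FPKM in any library.

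The genes of the staining markers were the lowest in level. Aif1 (chr17:35170992-35176001, minus strand, 8 exons, 875 nucleotides) encodes IBA1, a calcium-binding protein of the actin cytoskeleton. It was at 3.65, 5.91 and 4.59 FPKM in mouse 1, at 2.78, 5.61 and 4.58 in mouse 2, and at 8.90 and 10.1 in mouse 3. Mouse 3 was 2.10 times as high as the mean of the other mice, more than for any of the other 8 genes, with a log2 difference of 0.95 ± 0.21 (adjusted p = 0.026, limma). Aif1 also had the lowest coverage in a single library of the 8 genes with 1 transcript, in a range of 4.75 to 21.5 reads per base. In mouse 3 its coverage (18.3 and 21.5) was above that of Tmem119 (13.7 and 16.5). For Aif1 the deposited confidence bounds placed mouse 3 above the other mice in 10 of 12 pairs of libraries. Its difference was 0.69 in TPM (adjusted p = 0.023) and 0.43 with the length trend removed (adjusted p = 0.13).

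Tmem119 (chr5:113793729-113800352, minus strand, 2 exons) encodes a membrane protein of microglia. It was at 5.95, 5.93 and 6.51 FPKM in mouse 1, at 4.47, 5.45 and 5.87 in mouse 2, and at 6.64 and 7.75 in mouse 3. Mouse 3 was again highest without overlap, but by a small margin. The deposited confidence bounds placed mouse 3 above the other mice in 3 of 12 pairs of libraries. The log2 difference of 0.29 ± 0.10 did not pass the test (adjusted p = 0.075, limma). It was 0.035 in TPM and 0.19 after correction for length.

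Over the 9 genes, 6 differed between the mice, all of them higher in mouse 3 (C1qa, C1qb, C1qc, Trem2, Aif1 and Cx3cr1). Among all 13001 genes tested, 26.9% differed, 15.0% higher and 11.9% lower in mouse 3. The median log2 difference of the 9 genes was 0.50 in FPKM, 0.21 in TPM and 0.19 with the length trend removed, beside 0.02, −0.23 and −0.0081 for all genes. Both libraries of mouse 3 were above the other 6 for 7 of the 9 genes and for 26.5% of the genes tested. Mice 1 and 2 were close to each other, with mouse 2 minus mouse 1 between −0.19 (Tmem119) and 0.044 (P2ry12) on the log2 scale.

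Transcript length divided the 9 genes. C1qa, C1qb, C1qc, Trem2 and Aif1 belong to the shortest quintile of the genes tested, in which 36.8% of genes were called higher in mouse 3, and all 5 were called. P2ry12 and Tmem119 belong to the second quintile (17.4% called higher) and neither was called. Cx3cr1 and Csf1r belong to the fourth quintile, in which 6.85% were called higher, and Cx3cr1 was. After removal of the length trend 2 of the 9 were called, Cx3cr1 and C1qb, beside 22.1% of all genes (11.6% higher and 10.5% lower). In TPM 3 were called, C1qb, Trem2 and Aif1, all higher, beside 43.8% of all genes (6.58% higher and 37.2% lower). C1qb was the only one of the 9 that passed in FPKM, in TPM and after removal of the length trend. Without the second library of mouse 3 none of the 9 passed (5 at an unadjusted p under 0.05 by limma), beside 2.77% of all genes (1.55% higher and 1.22% lower). There 8 of the 9 log2 differences were above 0, from 0.15 for Csf1r to 0.87 for Aif1. In that fit the remaining library of mouse 3 was assumed to vary like those of the other mice. Without the first library of mouse 3 the log2 differences of the 9 ran from −0.19 for Csf1r to 1.03 for Aif1.

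**Figure D4:**
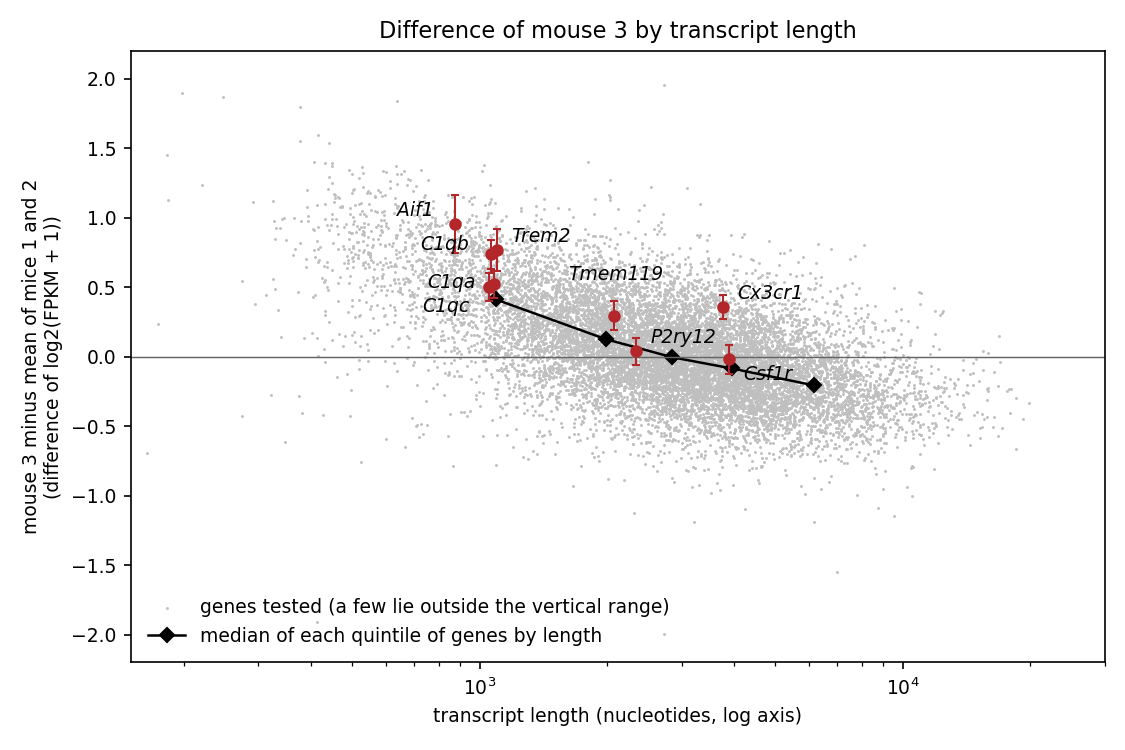
Log2 difference of mouse 3 from the mean of mice 1 and 2 (vertical axis, difference of log2(FPKM + 1)) against transcript length (horizontal log axis, nucleotides), for all genes tested (grey, 25 of them outside the vertical range), with the 9 genes in red (bars, SE) and the median of each quintile by length in black. The medians fall from 0.41 in the shortest to −0.21 in the longest quintile, the genes of about 1000 nucleotides lie on or above that line, and Cx3cr1 lies well above it.

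**Figure D5:**
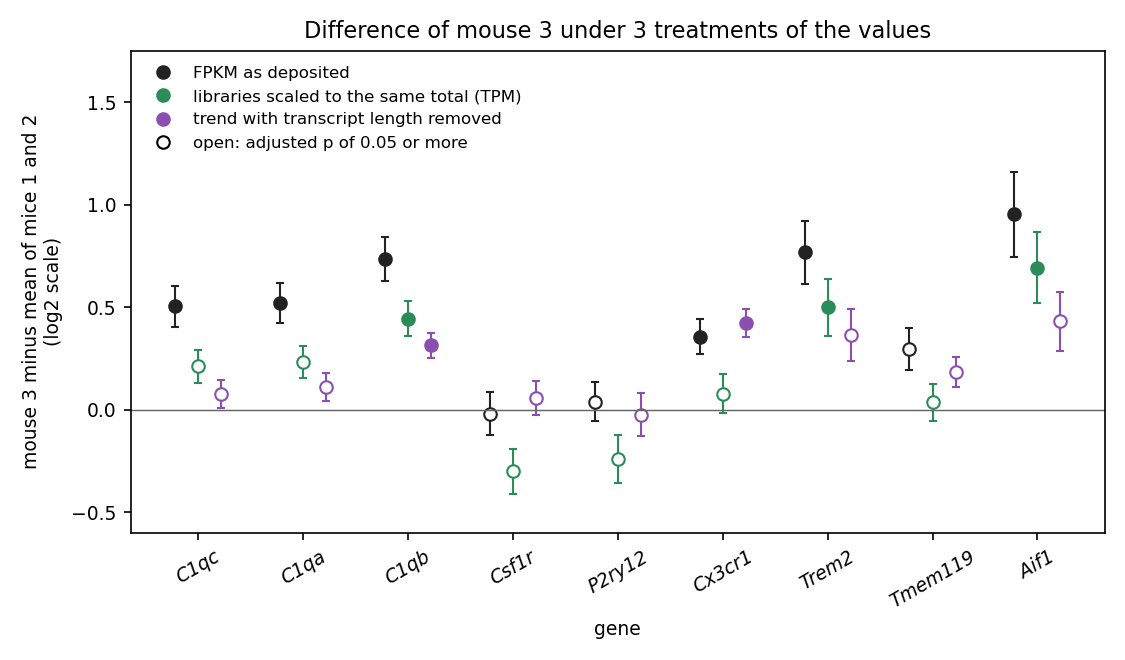
Log2 difference of mouse 3 from the mean of mice 1 and 2 (vertical axis; bars, SE of the limma fit) for the 9 genes in FPKM (black), in TPM (green) and after correction for length (purple), with filled points at an adjusted p under 0.05. C1qb is filled in all 3, at 0.73, 0.44 and 0.31, and the points of Csf1r and P2ry12 lie near or below 0.

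Other genes known from microglia gave a wider view of the same cells. Of 30 further microglia marker genes 25 were tested, and 7 were higher and 0 lower in mouse 3, with a median log2 difference of 0.28, beside 15.0% higher and 11.9% lower over all genes. In TPM 3 were higher and 2 lower (median 0.053), beside 6.58% higher and 37.2% lower over all genes (median −0.23). With the length trend removed 2 were higher and 0 lower (median 0.19), beside 11.6% higher and 10.5% lower over all genes (median −0.0081). Among those higher in FPKM were Tyrobp, Ly86 (0.87 ± 0.18, adjusted p = 0.020) and Ltc4s (0.90 ± 0.13, adjusted p = 0.0073, limma). So were Gpr34 (0.51 ± 0.14, adjusted p = 0.047), Mertk (0.45 ± 0.086, adjusted p = 0.016) and Ctss (0.37 ± 0.089, adjusted p = 0.038, all limma). Ctss, which encodes a protease of the lysosome, was at 42.2 ± 6.62 FPKM, above the mean of every one of the 9 genes. Mertk, which encodes a receptor for the uptake of dying cells and is also made by astrocytes, was called with the length trend removed too (0.51, adjusted p = 0.0040), along with Itgb5 (0.37, adjusted p = 0.020). In TPM Tyrobp, Ly86 and Ltc4s were called higher, and the transcription factor gene Sall1 was called lower (−0.38, adjusted p = 0.018), which did not pass in FPKM (−0.14, adjusted p = 0.43). Spi1 itself was at 1.60 ± 0.0481 FPKM (log2 difference 0.048, adjusted p = 0.93).

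Of 12 genes that activated microglia are known to switch on, 8 were too low for testing. Of the 4 tested, Axl, a receptor gene that astrocytes and vessels also express, was at 11.1 ± 3.02 FPKM and higher in mouse 3 (0.59 ± 0.075, adjusted p = 0.0053, limma). Its difference was 0.73 with the length trend removed (adjusted p = 0.0011) and 0.31 in TPM (adjusted p = 0.059). Spp1, which encodes osteopontin and is also made by some neurons, was at 21.9 ± 2.96 FPKM, above 6 of the 9 marker genes, with Lpl at 4.97 ± 0.491 and Cd74 at 3.92 ± 0.407, and these 3 did not pass the test (adjusted p = 0.31, 0.22 and 0.54, limma). Among the low genes, Itgax was at 0.0846 ± 0.0341 FPKM and Clec7a at 0.403 ± 0.267. Clec7a was at 0.626 and 0.792 in mouse 3 and at 0.153 to 0.367 elsewhere. Gpnmb was at 0.554 and 0.580 in mouse 3 and at 0.306 to 0.470 elsewhere. For Itgax, Ccl3 and Il1b mouse 3 lay within the range of the other mice, and Cst7, Ccl4 and Tnf were listed at 0 in 6, 6 and 5 of the 8 libraries. Of the 14 ligands and partners 8 were tested, with Tyrobp and Apoe higher and Cx3cl1 lower in mouse 3. Among all genes tested, 15.0% were higher and 11.9% lower. The complement genes that act after C1q were far below the C1q chains: C1ra was at 0.665 ± 0.0549 FPKM, C1s1 at 0.417 ± 0.0698, C2 at 0.582 ± 0.104, C3 at 0.263 ± 0.0448 and C4b at 4.04 ± 0.284.

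Genes of other macrophages and of blood cells were read as well, where 15.0% of all genes tested were called higher and 11.9% lower in FPKM. Of 8 genes of border-associated macrophages, which line the vessels and meninges and share Csf1r, Cx3cr1 and C1q genes with microglia, 3 were tested and 0 called by limma in either direction (0 also at an unadjusted p under 0.05). Their summed level was 4.53 to 7.80 FPKM in mice 1 and 2 and 7.34 and 7.55 in mouse 3. The markers Mrc1, Cd163 and Lyve1 were at 1.16 ± 0.0580, 0.388 ± 0.0479 and 0.422 ± 0.0813 FPKM. Relative to the mean of mice 1 and 2, mouse 3 was at 0.92, 0.80 and 0.82 for these genes. For the other members, F13a1, Stab1, Cbr2, Pf4 and Ms4a7, it was at 1.03, 1.10, 1.32, 1.89 and 2.47. The 9 genes together summed to 113.7 to 140.6 FPKM in mice 1 and 2 and to 178.6 and 192.8 in mouse 3. Of 7 genes of monocytes and neutrophils 1 was tested and called higher, Ly6c2 (0.94 ± 0.13, adjusted p = 0.0060, limma), whose reads cannot be safely told from those of its close paralog Ly6c1, a gene of vessels, while Ccr2 was at 0.158 ± 0.0363 FPKM. Their sum was 3.30 to 5.99 FPKM in mice 1 and 2 and 10.5 and 9.68 in mouse 3. None of 6 lymphocyte genes reached the level for testing, and of 5 red blood cell genes 1, Hbb-bt, was called higher. With the length trend removed Hbb-bt was called higher (0.45) and Hba-a1 lower (−0.47, adjusted p = 0.0038, limma). Values of single globin genes could vary widely between libraries, with Hbb-bs from 0.00398 to 33.4 FPKM. The red blood cell genes summed to 529.6 to 659.2 FPKM in mice 1 and 2 and to 801.1 and 896.5 in mouse 3, with a median log2 difference of 0.28 that was −0.022 in TPM and −0.099 with the length trend removed. What part blood in the tissue had in the marker levels was not tested.

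Genes of other brain cells moved as well. Over all genes tested, 15.0% were called higher and 11.9% lower in mouse 3 in FPKM, with a median log2 difference of 0.02. These values were 6.58%, 37.2% and −0.23 in TPM, and 11.6%, 10.5% and −0.0081 with the length trend removed. All 6 astrocyte genes were called higher in mouse 3, with a median log2 difference of 0.52, and their summed level was 590.8 to 644.3 FPKM in mice 1 and 2 and 994.1 and 1100 in mouse 3. With the length trend removed 6 of 6 were called higher, and in TPM 2 of 6. Of 6 oligodendrocyte genes 2 were called higher, Mbp and Mobp (median 0.41), and 2 in TPM (median 0.12) and 3 with the length trend removed (median 0.34). Of 5 endothelial genes none was called by limma in FPKM (1 at an unadjusted p under 0.05, median 0.28) or in TPM (1 at an unadjusted p under 0.05, median −0.0020), and 2 were called higher with the length trend removed, Flt1 and Slco1a4 (median 0.35). Of 6 neuronal genes 2 were called lower, Rbfox3 and Syt1 (median −0.13), 4 were lower in TPM (median −0.43), and with the length trend removed 3 were lower and 1, Map2, higher (median −0.27). Whether a different make-up of the tissue taken from mouse 3, the length dependence of its libraries or the state of its microglia accounts for the higher marker levels was not tested, and with a single mouse on that side these cannot be told apart.

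The genes whose pattern over the 8 libraries was most like the mean pattern of the 9 were Tuba1a, Cpe, Car2, Htra1, Oat, Atp5b, Wdr13, Clns1a, Ifngr1 and Paics. Their root-mean-square difference from it was 0.0308 to 0.0424 on the log2 scale, beside a median of 0.243 over all 12992 genes ranked, and none of the 10 is on a list used here. The further microglia genes had a median of 0.188. Mertk came closest of them, at rank 232, and 6 of 25 were within the first 1000. The 9 genes differed from their own mean pattern by 0.0668 (C1qa) to 0.279 (Aif1, beyond the median gene). Csf1r at 0.236 and P2ry12 at 0.241 were about as far from that pattern as the median gene. The measure takes in the size of a change, so a gene that rose more than the mean pattern also lay further off.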

How the data were processed

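Whole-brain RNA of 3 mice was sequenced in 8 libraries (Kapa mRNA HyperPrep kit, NextSeq500). The authors deposited FPKM values of 34535 RefSeq transcripts per library, with confidence bounds and, as a signal, the coverage (read depth per base, not scaled for library size). TopHat, Cufflinks and mm10 are named in the submitters' processing notes, and versions, strand setting and read length are not given in the sources used here. FPKM values are not counts, and no counting interval can be given. Reads shared between transcripts were divided by the authors' estimation.

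FPKM values were summed per gene and averaged per mouse and then over the 3 mice (Python 3.11.15, pandas 2.3.3, numpy 2.4.6, and matplotlib 3.10.9 for plots). Mice were compared with limma 3.58.1 (R 4.3.3, moderated F-test with trend) on log2(FPKM + 1), a scale that understates changes of low genes, over the 13001 genes that averaged 1 FPKM or more, and genes with a Benjamini-Hochberg adjusted p under 0.05 were called. The script was tested on simulated data. For the length-corrected values, a lowess trend (span 0.3) of each library on transcript length was removed. Single-transcript genes overlapped their RefSeq locus on GRCm38 in 99.2% of 17924 cases.

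Named genes were the 9 markers, members of the lists (further microglia genes, ligands and partners, activated microglia, border-associated macrophages, monocytes and neutrophils, lymphocytes, red blood cells, neurons, astrocytes, oligodendrocytes and endothelial cells) and the 10 genes most like the 9 in pattern. Ephb2 and Epha8 lie outside this rule and were taken as neighbours. C1s was found in the table as C1s1. Some members of the lists are not reported here by name. The 9 genes and the lists were chosen with earlier results of these data known. Alternatives were another pseudocount, other minimum levels, TPM, length correction, the highest transcript only, no variance trend, equal weight for the 8 libraries, library number as a block and each library left out.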

Additional observations from a re-analysis of the deposited data

How the results depend on the processing

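The mean levels of the 9 genes moved by less than the SD between mice in 97 of 99 alternatives, the others being P2ry12 without library 1 (14.7 FPKM) or library 2 (13.9 FPKM) of mouse 3. The number of genes called between the mice (3496 in FPKM, 55.9% of them higher in mouse 3) was 5694 in TPM, of which 15.0% were higher in mouse 3, and 360 to 4097 with 1 library left out, with the lowest count without the second library of mouse 3. Counts were 2090, 1924 and 1873 without library 1, 2 or 3 of mouse 1. Of the 9 genes, 6 were called in FPKM, 3 in TPM, 2 with the length trend removed and 0 to 6 with 1 library left out. C1qb was called in 15 of 16 alternatives (adjusted p up to 0.071, limma), C1qa, C1qc and Trem2 in 13, Aif1 in 11 and Cx3cr1 in 7. The sign of the small differences of P2ry12 turned in TPM (−0.24), with the length trend removed (−0.024) and without the second library of mouse 3 (−0.078). That of Csf1r turned with the length trend removed (0.059), under the block (0.011), without the third library of mouse 2 (0.015) and without the second of mouse 3 (0.15), over a range of −0.19 to 0.15 with 1 library left out. The difference of the C1qa to C1qc ratio turned under the block (−0.019) and ranged from −0.023 to 0.060 with 1 library left out, that of C1qa to C1qb from −0.30 to −0.14 and that of C1qc to C1qb from −0.35 to −0.13, both smallest without the second library of mouse 3. The causes were not tested. Deviations of same-numbered libraries correlated weakly, at 0.0028 to 0.11, with 1 of 7 pairs above 0.1. Those of differently numbered libraries correlated at −0.13 to 0.065. These values cannot settle whether the numbers pair the samples, since the deviations of the 2 libraries of mouse 3 mirror each other. With the library number as a replicate block, 3385 genes and 7 of the 9 were called, Tmem119 being added (0.35, adjusted p = 0.038, limma), and 66.3% of calls were higher in mouse 3. Read counts are not known, so depth limits single values only through the deposited bounds, whose median half-width in the 8 genes with a single transcript (without Trem2) ran from 6.68% of the value for Csf1r to 28.6% for Aif1.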
